A study of Mus musculus with 2 samples.

Results

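Mir22, Mir132, Mir212 and Mir210 are microRNA genes known from the stressed heart, and all 4 were found by gene name among the 2202 microRNA genes counted in mouse heart. They are 4 of the 340 genes that reached 10 counts in each library, which are called detected here. The hearts came from male B6CASTF1/J mice, the first-generation hybrid of C57BL/6J and the wild-derived CAST strain, aged 10 days and given no treatment that the labels name. Small RNA (size limit under 30 in the labels) was sequenced as biological replicates 1 and 2 of a single group. The labels give each library its own biosample but both a common donor identifier. That the libraries come from separate animals is therefore an assumption, and the SDs and spreads below are between 2 libraries. There is no stressed, hypoxic, older or otherwise contrasting group, so the levels below describe an unchallenged young heart and the only comparison is between 2 libraries.

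MicroRNAs are short RNAs cut from hairpin precursors. Bases 2 to 8 of the mature form, the seed, pair with messenger RNAs and lower their output. miR-22 is abundant in striated muscle and promotes cardiomyocyte hypertrophy in mice. miR-132 and miR-212 come from a common precursor transcript that the factor CREB can activate, and in cardiomyocytes they repress Foxo3, a factor that restrains growth and favours autophagy. miR-210 is the best known microRNA induced by hypoxia-inducible factor, and it represses the iron-sulphur scaffold protein ISCU of mitochondrial respiration.

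The mature forms are shown first because they decide which genes can be told apart by a read and which share targets. Capitals mark the seed. Sequences are from RefSeq on GRCm38.p6, the assembly behind mm10, and all 4 genes matched.

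miR-22-3p: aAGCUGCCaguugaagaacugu

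miR-22-5p: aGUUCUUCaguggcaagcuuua

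miR-132-3p: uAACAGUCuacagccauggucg

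miR-132-5p: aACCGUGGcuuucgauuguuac

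miR-212-3p: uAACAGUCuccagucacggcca

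miR-212-5p: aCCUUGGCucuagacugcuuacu

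miR-210-3p: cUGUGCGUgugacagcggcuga

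miR-210-5p: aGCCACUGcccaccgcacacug

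The 3p forms of miR-132 and miR-212 share the seed AACAGUC, and no other mature form among 1738 in the RefSeq table has it. None of the other 6 seeds occurred in a mature form of another gene. Counted from the 5′ end of miR-132-3p, miR-212-3p is identical for the first 9 bases and differs at 5 of 22 positions (A10C, C14U, U17C, U20C and G22A). A full-length read therefore separates these genes although their seeds are the same. The longest stretch that any of the 8 mature forms had in common with another counted hairpin was 11 bases. None of the 4 hairpins shared 20 bases with another counted hairpin, whereas 80 of the 340 detected genes (23.5%) did.

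The hairpins of the Mir132 and Mir212 pair are shown with both mature forms in capitals.

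Mir132: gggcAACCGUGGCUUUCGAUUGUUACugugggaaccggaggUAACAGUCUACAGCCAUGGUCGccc

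Mir212: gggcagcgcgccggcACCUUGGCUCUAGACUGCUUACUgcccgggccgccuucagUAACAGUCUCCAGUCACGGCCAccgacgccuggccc

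Outside the mature forms the hairpins differ in length, 66 bases for Mir132, 91 for Mir212, 95 for Mir22 and 110 for Mir210. The gap between the 5p and 3p forms was alike, from 15 bases in Mir132 to 17 in Mir212. The hairpins of Mir212 (69.2% G and C) and Mir210 (69.1%) were richer in these bases than 96.4% and 96.2% of the 2202 counted hairpins, whose median was 50.8%. Mir132 had 57.6% and Mir22 55.8%. Predicted folding energies were -37.2 kcal/mol for Mir132, -41.5 for Mir212, -41.9 for Mir22 and -48.0 for Mir210.

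**Figure D1:**
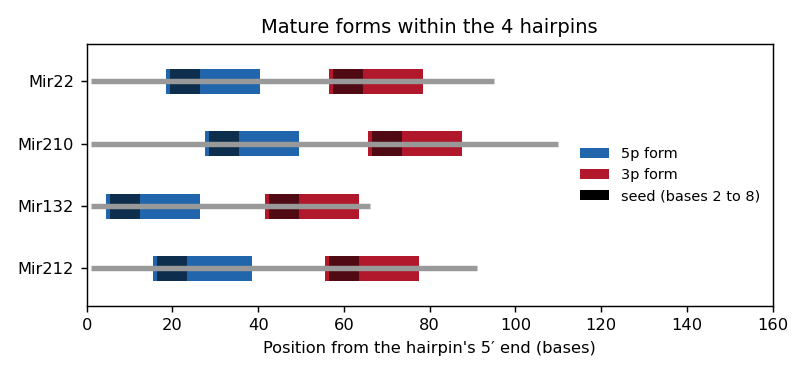
Position of the 5p form (blue), the 3p form (red) and their seeds (dark) in each hairpin, in bases from the 5′ end of the hairpin; the grey line spans the whole hairpin. The gap between the forms is 15 to 17 bases in all 4 hairpins, which are 66 to 110 bases long.

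Mir22, Mir132 and Mir212 lie on the plus strand of chromosome 11 and Mir210 on the minus strand of chromosome 7 (mm10). Mir212 (ENSMUSG00000065590.1; 75173388 to 75173478) and Mir132 (ENSMUSG00000065537.2; 75173682 to 75173747) are 203 bases apart in an intron of the noncoding gene 1700016P03Rik. Mir22 (ENSMUSG00000065529.1; 75463716 to 75463810) begins 289968 bases further on. It lies in exon 2 of the noncoding host gene Mir22hg, and also in exon 2 of a transcript of Tlcd2 that has no coding part in GENCODE M21. Mir210 (ENSMUSG00000065551.1; 141221384 to 141221493) overlaps no other annotated gene, and its nearest neighbour is Rassf7, 2725 bases away. Within 10 kb the only microRNA neighbours were Mir132 and Mir212 themselves.

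Depth was 3748432 counts on the gene strand in replicate 1 and 6305782 in replicate 2, out of 8835703 and 17033667 reads. Reads with several mapping positions, which no gene count holds, were 36.8% and 48.1% of all reads. The tissue label was checked against markers. All 3 cardiomyocyte genes of the myosin loci (Mir208a, Mir208b, Mir499) were detected, with summed levels of 8268 and 12348 CPM (counts per 1000000 counts on the gene strand of microRNA genes). Of 6 neural markers, set beside Mir132 because neurons also express it, 5 could be matched and none was detected, with 2 counts in each library over all of them. These 5 share at least 20 bases with other hairpins, so reads with several positions could be missing from them. Markers of other tissues were detected too, hepatocyte Mir122 with 217 and 490 counts and skeletal muscle Mir206 with 101 and 123.

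Mir22 was the most abundant of the 4 genes and Mir212 the least, in both libraries. Mir22 had 7113 CPM in replicate 1 (26662 counts, exact Clopper-Pearson 95% interval 7028 to 7198) and 4881 CPM in replicate 2 (30776 counts, 4826 to 4935). Its mean of 5997 ± 1578 CPM (SD, n = 2) ranked 28 among the 340 detected genes. Mir22 alone held 88.1% and 87.6% of the counts of the 4 genes, which together took 0.807% of all counts in replicate 1 and 0.557% in replicate 2. The replicate 1 value was the higher for Mir22, and the intervals did not overlap; they cover counting error only, since amplified reads are not independent molecules. In whole tissue, fewer cells of a type and less RNA per cell cannot be told apart.

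The hypoxia microRNA gene Mir210 had 506 CPM in replicate 1 (1898 counts, interval 484 to 530) and 354 CPM in replicate 2 (2235 counts, 340 to 369). Its mean was 430 ± 107 CPM (SD, n = 2), rank 95 of 340. Again replicate 1 was the higher library and the intervals did not overlap. Mir22 exceeded Mir210 by 14.0-fold in replicate 1 and 13.8-fold in replicate 2.

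Of the CREB-linked pair, Mir132 had 436 CPM in replicate 1 (1635 counts, interval 415 to 458) and 323 CPM in replicate 2 (2037 counts, 309 to 337), a mean of 380 ± 80.0 CPM (SD, n = 2) and rank 101. Mir212 had 15.7 CPM in replicate 1 (59 counts, interval 12.0 to 20.3) and 12.1 CPM in replicate 2 (76 counts, 9.50 to 15.1), a mean of 13.9 ± 2.61 CPM (SD, n = 2) and rank 250. Mir132 was higher in replicate 1 with intervals apart, whereas those of Mir212 overlapped. Mir212 was well above the limit of 3 counts, which is 0.800 CPM in replicate 1 and 0.476 CPM in replicate 2.

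**Figure D2:**
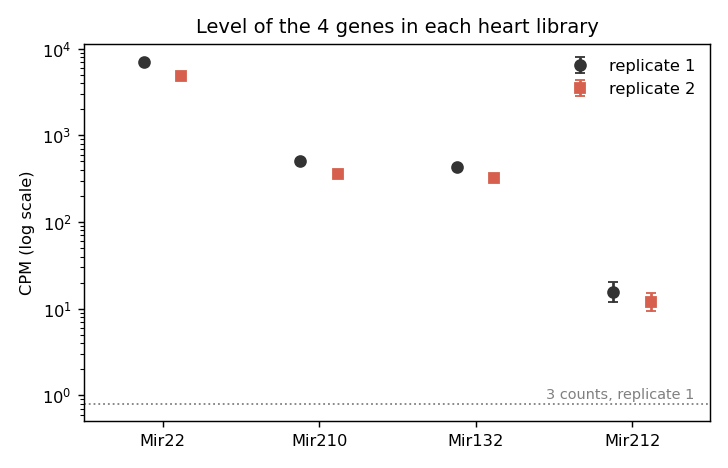
CPM (log scale) of the 4 genes in replicate 1 (circles) and replicate 2 (squares), with exact 95% intervals from counts, which are smaller than the symbols except for Mir212. The dotted line is the level of 3 counts in replicate 1. Mir22 lies near 7113 and 4881 CPM, Mir210 and Mir132 between 323 and 506 CPM, and Mir212 near 15.7 and 12.1 CPM.

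The order Mir22, Mir210, Mir132, Mir212 held in both libraries. Mir210 exceeded Mir132 by 1.16-fold in replicate 1 (exact 95% interval 1.09 to 1.24) and 1.10-fold in replicate 2 (1.03 to 1.17), in the same direction. Both intervals lie above 1, but they treat reads as independent, which amplified reads are not. These levels come from the same libraries, and both genes were lower in replicate 2, so the ratio within a library is the closer comparison than the SDs of the means. With 2 libraries it has no test beyond counting error. The steps from Mir22 to Mir210 and from Mir132 to Mir212 are many times the spread. Levels of different microRNAs are compared here as reads per molecule of similar length. Unequal capture of different sequences by library preparation was not tested.

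**Figure D3:**
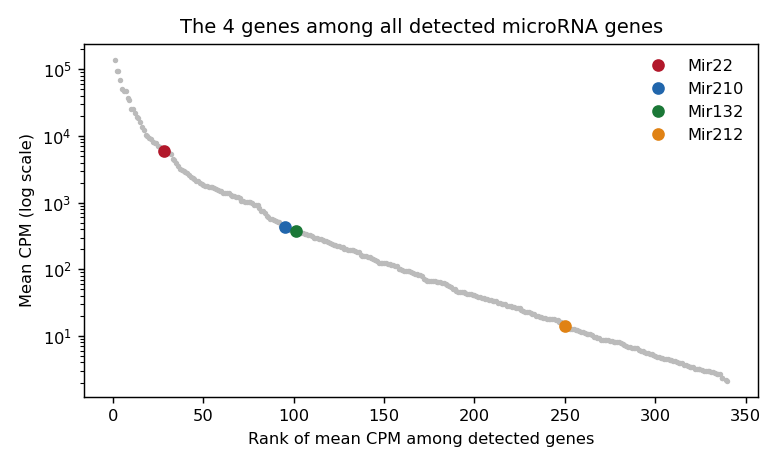
Mean CPM (log scale) of the 340 detected genes against their rank, with the 4 genes in colour. Mir22 ranks 28, Mir210 95, Mir132 101 and Mir212 250. Reads with several mapping positions are not counted, so genes that share stretches with other hairpins can rank too low.

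Mir132 and Mir212, neighbours with a common seed, had nearly equal proportions in both libraries. Mir132 took 96.5% of the 1694 counts of the pair in replicate 1 (exact 95% interval 95.5% to 97.3%) and 96.4% of 2113 in replicate 2 (95.5% to 97.2%). The mean was 96.5% ± 0.0805 (SD, n = 2). A two-sided Fisher exact test of these counts gave p = 0.861, and the difference in log2 ratio between Mir132 and Mir212 was -0.05 (exact 95% interval -0.57 to 0.47). The interval is wide because Mir212 had only 59 and 76 counts. Mir132 exceeded Mir212 by 27.7-fold (21.4 to 36.6) and 26.8-fold (21.3 to 34.2). The deposited table merges the 5p and 3p forms of a gene, so how much of either gene's count carries the seed AACAGUC is not known.

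Between the libraries, 3 of the 4 genes were called lower in replicate 2 and the fourth, Mir212, was not called. A gene's counts were tested against the libraries' depths after TMM scaling by a two-sided exact binomial test, with Benjamini-Hochberg adjustment over the 340 genes. This test weighs counting error only and compares 2 libraries, not conditions. Of all detected genes 72.1% were called at 0.05 in either direction, 37.9% lower and 34.1% higher in replicate 2, so being called is the common state of a gene in these libraries.

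The log2 ratio of replicate 2 to replicate 1 was -0.40 for Mir22 (exact 95% interval -0.42 to -0.38, adjusted p = 1.25e-238), that is 1.32-fold lower. For Mir210 it was -0.37 (-0.46 to -0.28, adjusted p = 5.99e-16) and for Mir132 -0.29 (-0.39 to -0.20, adjusted p = 3.48e-09). Mir212 had -0.25, with an interval from -0.75 to 0.27 (adjusted p = 0.398). All 4 values point to replicate 1 and are small beside the spread of the other genes. The SD of the log2 ratio over the 340 genes was 0.92 and the median size of a ratio, whatever its sign, was 0.54. Genes with a smaller ratio than Mir22 made up 38.8% of the detected genes, and 23.8% had a smaller one than Mir212.

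With 1 library on each side no residual degrees of freedom are left to measure variation between animals, so the calls of Mir22, Mir210 and Mir132 speak of counting error only.

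**Figure D4:**
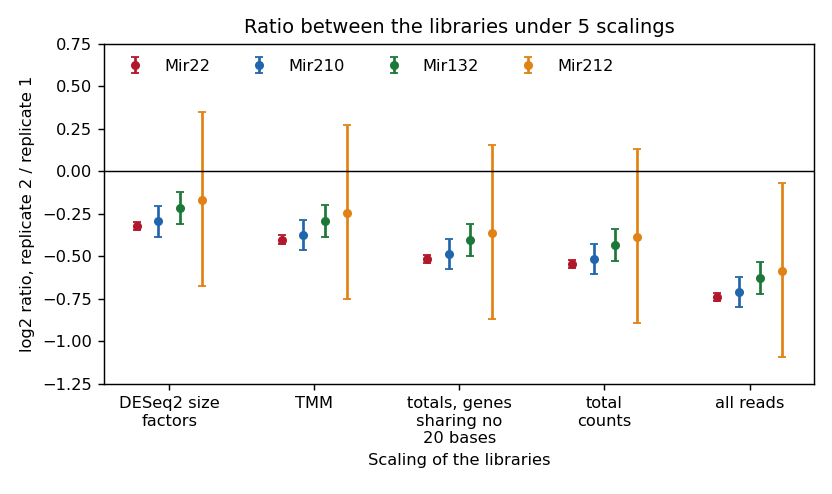
Log2 ratio of replicate 2 to replicate 1 for the 4 genes under 5 scalings of the libraries, with exact 95% intervals from counts. A scaling moves all genes alike, so the order of the genes cannot differ between scalings. All points lie below 0, and the interval of Mir212 crosses 0 in all but the last.

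The place of 0 on this scale is set by the scaling. The log2 ratios of the 4 genes ran from -0.40 to -0.25 with TMM, from -0.32 to -0.17 with DESeq2 size factors and from -0.54 to -0.39 with total counts. With all reads of the table as library size, those without a gene included, they ran from -0.74 in Mir22 to -0.58 in Mir212, and all 4 genes were called lower. Of all 340 detected genes 174 were called lower and 69 higher under that scaling, so a call in this direction was common. The median over all detected genes moved likewise, at -0.05, 0.03, -0.19 and -0.39. The 4 genes lay below that median in each, which adds no support because a scaling moves all genes alike.

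The differences between the 4 genes do not depend on the scaling, and they were small as measured, though those with Mir212 are uncertain. The ratios spanned 0.16 on the log2 scale, against a range from -0.61 to 0.47 for the middle 50% of all detected genes. All 6 pairs of the 4 genes were compared by two-sided Fisher exact tests, a comparison chosen after the values were seen, and none passed after adjustment over the pairs. The pair nearest to it was Mir22 and Mir132, whose ratios differed by -0.11 (exact 95% interval -0.21 to -0.01, p = 0.0265, adjusted p = 0.159). Mir22 and Mir210, on different chromosomes, differed by -0.03 (-0.12 to 0.06, adjusted p = 0.793). Pairs with Mir212 had wide intervals, from -0.67 to 0.35 for Mir22 and Mir212 and from -0.39 to 0.65 for Mir212 and Mir210. The tests therefore cannot show that Mir212 differs little from the others. Another 19 detected genes lay within the same span of ratios, so the 4 genes and these together are 6.76% of those detected.

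Genes most like each of the 4 were found by distance in log2(CPM + 1) over the 2 libraries, which matches little more than level. Mir210 had Mir132 as its second nearest gene (distance 0.25), after Mirlet7c-1 (0.14) and before Mirlet7a-1 (0.38). Mir132 was nearest to Mir30c-2 (0.21), then to Mir210 and Mirlet7c-1 (0.29). Mir212 lay beside Mir3058 (0.02; 15.5 and 12.1 CPM), Mir495 (0.16) and Mir702 (0.28). Mir22 had no such close partner. Its nearest was Mir100 (0.34; 7506 and 6146 CPM), followed by Mir93 (0.56) and Mir125a (0.59), both of which were higher in replicate 2, unlike Mir22. Mirlet7c-1, Mirlet7a-1 and Mir30c-2 share at least 20 bases with other hairpins, so their levels are uncertain.

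The other microRNAs linked to hypertrophy and hypoxia spanned a wider range of ratios than the 4 genes, and that difference was not tested. Each list below has more than 4 detected genes, and a range tends to widen with the number of genes. The lists also overlap, since Mir23a and Mir27b count both as hypertrophy-promoting and as hypoxia-linked. Of 9 genes reported to promote hypertrophy or remodelling all were detected, 5 higher and 4 lower in replicate 2, that is 100% called against 72.1% of all detected genes. The test calls more genes where counts are high. Of 249 genes with at least 50 counts in each library, a limit that all 9 pass, 214 were called. The list's median log2 ratio was 0.32, against -0.05 over all genes. The most abundant was Mir23a, a growth-promoting microRNA, at 32734 and 41593 CPM. Mir195a, of the cell cycle family of miR-15, had a log2 ratio of 2.56, and Mir208a, hosted by the alpha myosin gene Myh6, one of -1.34. With DESeq2 size factors 5 were higher and 2 lower, and with total counts 4 and 4. With all reads as library size 4 were higher and 4 lower, and the median turned to -0.02. Over all 340 detected genes 116 were higher and 129 lower with TMM, and 124 and 113 with DESeq2 size factors. These became 97 and 146 with total counts and 69 and 174 with all reads. A stretch of 20 bases or more is shared with other hairpins by 3 of the 9.

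Of 9 genes linked to limiting hypertrophy 5 were detected, with 3 higher, 0 lower and 2 not called (median log2 ratio 0.15). The 60% called compare with 72.1% of all detected genes. The most abundant was Mir378a, a metabolic microRNA, at 138757 and 137851 CPM. Mir1a-2, a gene of the muscle microRNA miR-1, had the highest log2 ratio (1.34), and its paralogue Mir1a-1, with 13 and 19 counts, had the lowest (-0.08) and was not called. With total counts 1 was higher and 1 lower, beside 97 and 146 of all 340 detected genes. With all reads as library size 1 was higher and 2 lower, beside 69 and 174, and the median turned to -0.19. Of the 9 hairpins 8 share at least 20 bases with others, so this list is uncertain.

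Of 17 genes linked to hypoxia besides Mir210, 15 were detected, 8 higher, 4 lower and 3 not called (median log2 ratio 0.31). The 80% called are again to be read against 72.1%, and against 214 of the 249 genes with at least 50 counts. The most abundant was Mir23b, at 44229 and 51212 CPM. The ratios ran from -2.04 in Mir24-1 to 1.69 in Mir26b. With total counts 7 were higher and 5 lower (97 and 146 of all 340 detected genes), with DESeq2 size factors 9 and 4 (124 and 113). With all reads as library size 7 were higher and 6 lower (69 and 174), and the median turned to -0.03. Here too 15 of the 17 hairpins share at least 20 bases with others, which Mir210 does not.

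**Figure D5:**
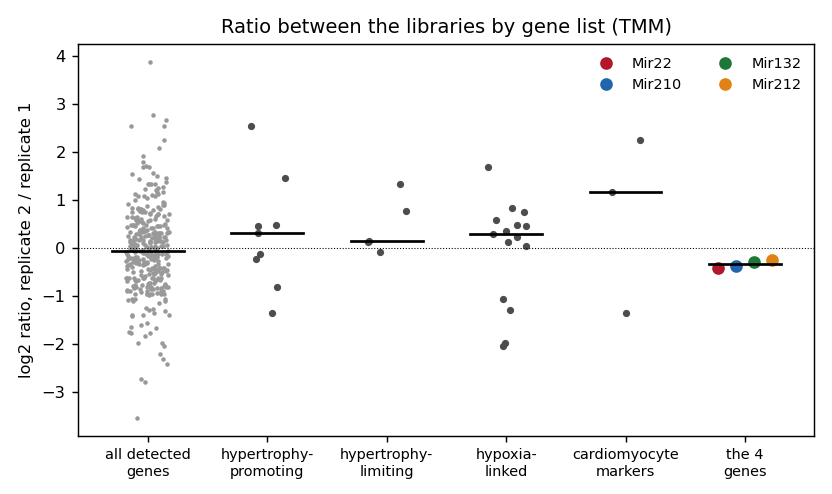
Log2 ratio of replicate 2 to replicate 1 (TMM scaling) for all 340 detected genes, the detected genes of 3 lists, 3 cardiomyocyte markers and the 4 genes in colour; black bars are medians. The 4 genes lie between -0.40 and -0.25, while the hypoxia-linked genes run from -2.04 to 1.69.

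The cardiomyocyte markers also varied between the libraries, in opposite directions. Mir208a had a log2 ratio of -1.34, Mir499 of 1.18 and Mir208b of 2.26. Endothelial Mir126a had 0.32, smooth muscle Mir143 0.38 and Mir145a 0.81, and erythroid Mir451a -0.07 and Mir144 0.66. Among leukocyte markers, Mir223 had 2.09, Mir142 1.24 and Mir155 -0.12. Whether the make-up of the tissue has a part in the ratios of Mir22, Mir132, Mir212 and Mir210 was not tested.

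Strand gave no ambiguity for the 4 genes. None had a count on the opposite strand in either library, and the column of counts over both strands held the same number as the gene strand. Over all genes that column kept 73.5% and 72.3% of the counts on the gene strand, and 26 detected genes lost counts in it.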

How the data were processed

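Small RNA of 2 heart libraries was analysed, 1 group of 2 replicates. The values are unnormalized counts of reads for each microRNA gene, made by the authors on mm10 with annotation M21, per the text deposited beside the tables. The aligner and counter, not given in the sources used here, could change which reads a gene holds. The tables have no header. The column of counts on the gene strand was used, a meaning read from the values, and 4 entries that name no gene stayed out of library totals. They held, in replicates 1 and 2, 16.0% and 11.5% (unmapped), 36.8% and 48.1% (several positions) and 4.78% and 3.43% (outside genes) of all reads; the entry for ambiguous reads was 0. All 2202 identifiers matched GENCODE M21.

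CPM, TMM factors over all counted genes (edgeR 4.0.16), DESeq2 1.42.0 size factors, exact binomial and Fisher tests (scipy 1.17.1), and Clopper-Pearson 95% intervals were computed from the counts, and folding energies from the hairpins with RNAfold 2.7.2. Log2 ratios used a prior of 0.5 counts. The binomial comparison was also run on simulated counts drawn with counting error only and with the library sizes known. That run cannot show how the test behaves where libraries vary beyond counting error.

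Named genes are the 4 genes, the 3 nearest to each in level, genes sharing a seed, microRNA genes within 10 kb, the most abundant and the highest and lowest ratio of each of 3 lists, and cell type markers. Members and lists were chosen with earlier results of these data known. Skeletal muscle (Mir206, Mir133b) and hepatocyte (Mir122) markers summed to 28.5 and 57.9 CPM in replicate 1 and to 21.1 and 77.7 CPM in replicate 2. Alternatives varied the scaling, filter, strand column, prior, library and test.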

Additional observations from a re-analysis of the deposited data

How the results depend on the processing

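Mir22, Mir132, Mir212 and Mir210 had a log2 ratio below 0 under all 9 alternatives to the test between the libraries. The changes of filter, prior and edgeR test kept the TMM library sizes, so their ratios repeat the main ones and add no support. The prior does not enter the binomial test, so the calls could not change with it. The calls of Mir22, Mir210 and Mir132 and the absence of a call for Mir212 held in 7 of the 9 alternatives. The exceptions were chosen after seeing the data. With all reads as library size Mir212 was called lower, at -0.58, and Mir22 moved to -0.74. Under that scaling 174 of the 340 detected genes were called lower and 69 higher. With edgeR's exact test and the common dispersion, Mir22 (-0.40), Mir132 (-0.29) and Mir210 (-0.37) lost their calls and 2 genes in all were called against 245. That dispersion was estimated from the same difference that the test examines, with 1 library on each side. The dispersion is common to the 340 detected genes, with a coefficient of variation of 0.416. The lost calls show that the ratios were not large beside the differences of the other genes. They cannot tell whether the ratios would recur in other libraries.

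The unit of level depends on its denominator. Per 1000000 counts of genes that share no 20 bases, the means were 8065 for Mir22, 511 for Mir132, 18.7 for Mir212 and 579 for Mir210. With both strands counted they were 8212, 520.0, 19.04 and 589, and per 1000000 of all reads 2412, 152, 5.57 and 173. The order of the genes is the same in each by arithmetic, since a denominator divides all genes of a library alike. Without replicate 1 or 2 Mir22 was 4881 or 7113 CPM, Mir132 323 or 436, Mir212 12.1 or 15.7 and Mir210 354 or 506, and the Mir132 share ran from 96.4% to 96.5%. No paired analysis was possible because the series has a single group. Depth limits Mir212 most, since 59 and 76 counts leave its ratio uncertain.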
